A study of Mus musculus with 2 samples.

Results

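The phagocyte NADPH oxidase and the intracellular superoxide dismutases were followed through 7 genes, taken by symbol from the 28692 genes listed for both libraries: Cybb, Cyba, Ncf1, Ncf4, Rac2, Sod1 and Sod2. The libraries hold GR-1+ cells of mammary fat pad tumors, isolated by positive selection with magnetic beads, from female BALB/c mice aged 8 to 10 weeks at the start of the experiment. One tumor type grew from 4T1p, the parental 4T1 line of a triple negative breast carcinoma, which resists antibodies against PD1. The other grew from 4T1m, polyclonal cells made from the same line with the mutagen MNNG (1-methyl-3-nitro-1-nitrosoguanidine), which respond to them. Mice of both tumor types had received anti-PD1 for 2 weeks, and 1 library of each type was made (10x Genomics, 3′ v3). The number of animals behind a library is not given in the sources used here. As each condition has 1 library, nothing was tested. All intervals below are 95% intervals of counting error only (exact Poisson for levels, exact binomial for shares and ratios), and they do not cover variation between animals.

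The oxidase makes superoxide by passing electrons from NADPH across a membrane to oxygen. Its membrane core is a heterodimer of the products of Cybb (gp91phox, the catalytic subunit) and Cyba (p22phox). On activation cytosolic subunits, among them the organizer Ncf1 (p47phox) and Ncf4 (p40phox, which binds phosphoinositides on membranes), join it together with a Rac GTPase, of which Rac2 is the form of blood cells. Superoxide dismutases turn superoxide into hydrogen peroxide, Sod1 in the cytosol with copper and zinc, and Sod2 in mitochondria with manganese. The respiratory burst of neutrophils is the classic work of this enzyme, and superoxide from myeloid cells is one of the means by which they restrain T cells in tumors.

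The deposited barcodes numbered 1641 (9021132 UMIs) for the library labelled 4T1p and 2749 (14840190 UMIs) for that labelled 4T1m, and the libraries shared 0 of them. The study's limits (250 to 5000 genes, no more than 27000 UMIs, and a ceiling on the mitochondrial share) kept 1128 and 2092 cells, with medians of 2015 and 2739 UMIs. The study also required a Ptprc (CD45) count and removed doublets with scDblFinder, and neither was done here; a Ptprc UMI, or removal of doublets by Scrublet, was required in an alternative each. The study's methods attach the median UMI count of each library to the other condition, so every direction between libraries below rests on the deposited labels. Clustering on genes that did not include any oxidase or dismutase gene gave 11 clusters. By marker lists, 5 were monocytic-like (868 and 1014 cells in the libraries labelled 4T1p and 4T1m), 4 granulocytic-like (252 and 1023), and 1 each B cell-like (34 cells in all) and T cell-like (29 cells in all). All 10 monocytic and all 8 granulocytic markers were higher in their own lineage in both libraries. The clusters were named by these same lists, so this is no independent check of the names. Median depth differed between libraries in the monocytic-like cells (1601 and 3756 UMIs) more than in the granulocytic-like cells (2731.5 and 2481). A Ptprc UMI was found in 38.4% and 60.1% of monocytic-like and in 70.2% and 89.1% of granulocytic-like cells.

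The monocytic-like clusters were cluster 0 (533 cells, led by Fabp5 and Lgals1), cluster 1 (461, Vcan and Thbs1), cluster 4 (348, C6 and Cxcl9), cluster 5 (341, Tmem176b and C1qb) and cluster 7 (199, the cell cycle genes Birc5 and Top2a). Cluster 0 was low in RNA, with a median of 905 UMIs and a Ptprc UMI in 18.2% of its cells, and values without it are given where they bear on a result. Clusters 5 and 7 were shallow too, with medians of 1257 and 1480 UMIs and a Ptprc UMI in 26.1% and 26.6% of cells. Clusters 1 and 4 had medians of 10718 and 12743 UMIs and a Ptprc UMI in 90.9% and 81.6%. The granulocytic-like clusters were cluster 2 (404 cells, led by Ccdc126 and Tnfrsf23), cluster 3 (399, Mirt1 and Hdc), cluster 6 (291, Slc2a3 and Prok2) and cluster 8 (181, Camp, Ngp and Ltf, granule genes known from immature neutrophils). Levels are summed UMIs of a group scaled to a total of 1000000 (CPM). Clusters 5 and 0 held most monocytic-like cells of the library labelled 4T1p, and clusters 1 and 0 most of those labelled 4T1m. Clusters 3 and 2 led the granulocytic-like cells of 4T1p, and clusters 2, 3 and 6 those of 4T1m.

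All 7 genes lie on the GRCm38 assembly as protein-coding genes: Cybb on chromosome X (9435252 to 9487771, minus strand), Cyba on chromosome 8 (122424776 to 122432930, minus), Ncf1 on chromosome 5 (134220053 to 134229625, minus), Ncf4 and Rac2 both on chromosome 15 (78244801 to 78262580, plus, and 78559167 to 78572783, minus), Sod1 on chromosome 16 (90220754 to 90226329, plus) and Sod2 on chromosome 17 (13006846 to 13040063, plus). A promoter sequence was found for 5 of the 7 in the RefSeq table of GRCm38.p6. Those of Cybb, Sod1 and Sod2 are shown because Cybb had the largest lineage contrast of the oxidase genes and the dismutases lay on opposite sides. Each window runs from 250 to 26 bases before the start (225 bases, 5′ to 3′ on the gene's strand) and touches no exon of its own gene in GENCODE, although the windows of Cybb and Sod2 lie within the span of their GENCODE genes. Capitals mark matches, on either strand, to the PU.1 core GAGGAA, the GC box GGGCGG, the CCAAT box CCAAT, the TATA box TATAAA and the NF-kB core GGGAAA.
Cybb, chrX:9469350-9469574, minus strand: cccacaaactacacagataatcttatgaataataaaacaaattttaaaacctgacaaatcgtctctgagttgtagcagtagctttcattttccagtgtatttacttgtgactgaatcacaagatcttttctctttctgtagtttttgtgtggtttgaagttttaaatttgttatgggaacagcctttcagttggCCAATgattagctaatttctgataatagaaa
Sod1, chr16:90220512-90220736, plus strand: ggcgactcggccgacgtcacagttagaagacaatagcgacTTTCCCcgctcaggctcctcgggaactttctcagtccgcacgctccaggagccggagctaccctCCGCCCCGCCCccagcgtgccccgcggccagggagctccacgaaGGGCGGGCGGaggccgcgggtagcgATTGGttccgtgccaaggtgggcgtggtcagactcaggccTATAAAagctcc
Sod2, chr17:13007589-13007813, plus strand: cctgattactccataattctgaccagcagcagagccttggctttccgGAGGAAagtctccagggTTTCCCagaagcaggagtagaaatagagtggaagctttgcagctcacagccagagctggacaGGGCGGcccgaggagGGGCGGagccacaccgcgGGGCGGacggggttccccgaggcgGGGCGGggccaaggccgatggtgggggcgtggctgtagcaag

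The Cybb window was AT-rich (32.0% GC, 1 CpG) and held 1 CCAAT box and no GC box. The dismutase windows were GC-rich (67.1% for Sod1 and 64.0% for Sod2, against a median of 52.0% over the 32851 promoters of the table), with 23 and 13 CpG, and each held 4 GC boxes. In Sod1 these lie as 2 overlapping pairs. Sod1 and Sod2 each held 1 NF-kB core, Sod1 also a CCAAT and a TATA box, and Sod2 a PU.1 core. A GC box was found in 29.2%, a CCAAT box in 31.6%, a TATA box in 10.6%, the PU.1 core in 20.8% and the NF-kB core in 20.2% of all windows of this length. These matches describe letters and not bound sites.

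The question of the lineage comparison was where the parts of the oxidase and the dismutases were expressed among GR-1+ cells. Over all cells of each lineage, the oxidase genes lay on both sides in both libraries. The membrane core, Cybb and Cyba, was higher in monocytic-like cells. The cytosolic Ncf1 and Ncf4 and the GTPase Rac2 were higher in granulocytic-like cells, although single clusters departed from this, as given below. The dismutases were divided too, with Sod1 higher in monocytic-like and Sod2 in granulocytic-like cells. Past a 2-fold difference, 1 of the 7 genes was higher in granulocytic-like cells in the library labelled 4T1p (Rac2) and 2 in the one labelled 4T1m (Ncf1 and Rac2). Of all genes with at least 200 UMIs in both groups together, 13.3% and 11.6% were past 2-fold in that direction. In the other direction 2 of the 7 were past 2-fold in each library, Cybb and Sod1 both times, where 45.9% and 47.7% of all genes were. The count toward monocytic-like cells is no larger a share than that background. The median log2 ratio of granulocytic-like over monocytic-like cells was 0.71 and 0.60 for the 7 genes and -0.80 and -0.90 for all genes tested. S100a8 and S100a9 alone took 150496 and 149394 CPM in granulocytic-like cells, against 748 and 1045 CPM in monocytic-like cells, and their part in the low median was not tested. Relative to the median of all genes Cyba turned to the granulocytic-like side (0.17 and 0.25), while the other 6 genes kept their side. Then 4 genes were past 2-fold toward granulocytic-like cells in each library, with 0 (4T1p) and 2 (4T1m) in the other direction. The share of all genes past 2-fold relative to the median was not computed, so these counts are read no further.

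**Figure D1:**
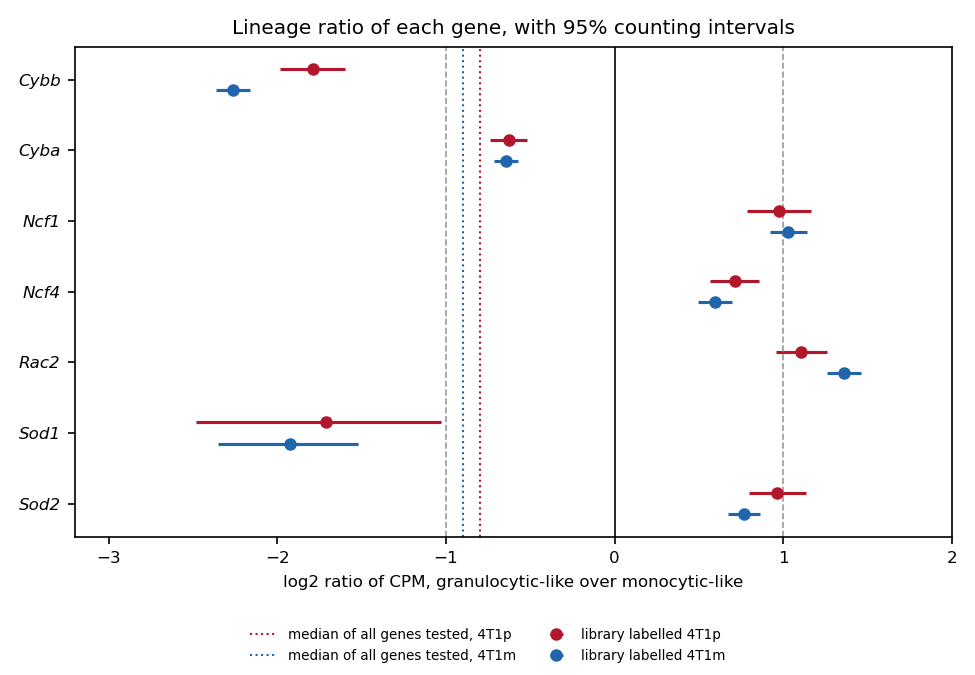
Log2 ratio of CPM, granulocytic-like over monocytic-like cells, of the 7 genes in the libraries labelled 4T1p (red) and 4T1m (blue), with 95% counting intervals; dashed lines mark 2-fold and dotted lines the median of all genes tested (-0.80 and -0.90). Cybb, Cyba and Sod1 lie to the left of 0, and Ncf1, Ncf4, Rac2 and Sod2 to the right, in both libraries.

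Cybb, the catalytic subunit, was at 970 CPM (942 to 999) in monocytic-like and 281 CPM (246 to 319) in granulocytic-like cells of the library labelled 4T1p. In the library labelled 4T1m it was at 1276 (1251 to 1302) and 266 CPM (248 to 285). The log2 ratio was -1.79 (-1.98 to -1.60) and -2.26 (-2.37 to -2.16), a level 3.45-fold and 4.80-fold higher in monocytic-like cells. The intervals of the lineages lay far apart in both libraries, and the monocytic-like level was the higher one in 4T1m. Without cluster 0 the ratios were -1.87 and -2.36.

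To set depth equal, cells were thinned to 1000 UMIs (295 and 233 monocytic-like and 22 and 83 granulocytic-like cells were shallower and dropped out). A Cybb UMI was then found in 35.4% (31.5 to 39.5) and 49.7% (46.1 to 53.2) of monocytic-like cells. Among granulocytic-like cells it was 11.3% (7.52 to 16.1) and 8.19% (6.52 to 10.1), and without thinning 17.5% and 16.0%. As the reference for background, T cell-like cells carried a Cybb UMI in 3.45% after thinning (0.0873 to 17.8) and in 3 of 29 cells without it, at a median of 5488 UMIs; 34 of their 40 Cybb UMIs came from 1 cell. The shares of granulocytic-like and T cell-like cells were not distinguishable at this number of T cell-like cells. B cell-like cells, which are known to use the gene, had 32.4% (17.4 to 50.5). The granulocytic-like UMIs were also unevenly spread: the 10 cells with the most held 71.9% of the 235 UMIs in the library labelled 4T1p and 33.5% of the 843 in 4T1m, against 12.6% and 6.78% in monocytic-like cells.

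Cyba, the stabilizing partner of Cybb, was at 1428 CPM (1394 to 1463) in monocytic-like and 925 CPM (861 to 992) in granulocytic-like cells of the library labelled 4T1p, and at 1075 (1052 to 1099) and 688 CPM (660 to 718) in that labelled 4T1m. The log2 ratios, -0.63 (-0.74 to -0.52) and -0.64 (-0.71 to -0.57), were alike in the libraries and under 2-fold, and much smaller than those of Cybb. A Cyba UMI was found, after thinning, in 71.2% and 59.4% of monocytic-like and 45.2% and 39.6% of granulocytic-like cells. B cell-like cells had 47.1% (29.8 to 64.9) and T cell-like cells 27.6% (12.7 to 47.2), so lymphocytes carried it as well.

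Ncf1, which brings the cytosolic subunits to the membrane, was at 368 CPM (328 to 412) in granulocytic-like and 187 CPM (175 to 200) in monocytic-like cells of 4T1p. In 4T1m the levels were 385 (364 to 407) and 188 CPM (179 to 199). Its log2 ratio, 0.98 (0.78 to 1.16) and 1.03 (0.92 to 1.14), lay at the 2-fold line in both libraries, so its call in only one of them does not separate the libraries. The thinned share was 29.6% and 26.4% in granulocytic-like cells, 14.3% and 15.6% in monocytic-like cells, and 5.88% (0.720 to 19.7) and 6.90% (0.846 to 22.8) in B and T cell-like cells.

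Ncf4, the phosphoinositide-binding subunit, was at 593 CPM (542 to 648) in granulocytic-like and 362 CPM (345 to 379) in monocytic-like cells of 4T1p, and at 423 (400 to 446) and 280 CPM (268 to 292) in 4T1m. The log2 ratio was 0.71 (0.57 to 0.86) and 0.60 (0.50 to 0.70), under 2-fold, and 0.17 and 0.43 with each cell given the same weight. In B and T cell-like cells it stood at 90.6 CPM (50.7 to 149) and 92.8 CPM (55.0 to 147), below both myeloid lineages.

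Rac2, the GTPase, was at 590 CPM (539 to 644) in granulocytic-like and 274 CPM (259 to 289) in monocytic-like cells of 4T1p. In 4T1m it was at 544 (519 to 570) and 212 CPM (201 to 223). The log2 ratio was 1.11 (0.95 to 1.26) and 1.36 (1.26 to 1.46). With each cell given the same weight in place of its UMIs the ratio was 0.37 and 0.73, under 2-fold. Rac2 was not confined to myeloid cells, at 640 CPM (524 to 774) in B and 660 CPM (551 to 785) in T cell-like cells.

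Sod1 had few UMIs, with 330 (70.4 CPM, 63.0 to 78.5) in monocytic-like and 18 UMIs (21.5 CPM, 12.8 to 34.0) in granulocytic-like cells of 4T1p, and 484 (65.8 CPM, 60.1 to 72.0) and 55 UMIs (17.4 CPM, 13.1 to 22.6) in 4T1m. The log2 ratio was -1.71 (-2.48 to -1.03) and -1.92 (-2.35 to -1.52). B and T cell-like cells, at 84.5 (46.2 to 142) and 108 CPM (67.0 to 166), were near the monocytic-like level, so that the granulocytic-like cells stood below every other cell type measured.

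Sod2, the mitochondrial enzyme and a known target of NF-kB, was at 469 CPM (424 to 518) in granulocytic-like and 240 CPM (226 to 255) in monocytic-like cells of 4T1p. In 4T1m the levels were 501 (477 to 527) and 294 CPM (282 to 307). The log2 ratio was 0.97 (0.80 to 1.13) and 0.77 (0.68 to 0.86). Its level in B and T cell-like cells, 115 and 119 CPM, was below both lineages.

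The lineage levels were averages over states that differed widely, and within the granulocytic-like cells the genes did not share 1 order. Cybb and Sod1 stayed below the monocytic-like level in every granulocytic-like cluster, while other genes did not all keep their side. Rac2 in cluster 2 (164 and 132 CPM) lay below the monocytic-like 274 and 212 CPM. Ncf4 in cluster 2 (339 and 262 CPM) and Ncf1 in cluster 6 (157 and 187 CPM) lay below the monocytic-like levels in both libraries, with overlapping intervals. Ncf1 in cluster 2 of 4T1p (174 CPM) lay below the monocytic-like 187 CPM, also with overlap. Sod2 in cluster 6 (157 and 148 CPM) lay below 240 and 294 CPM, with overlap in 4T1p. In cluster 8 of 4T1p Sod2 (185 CPM, 131 to 253) lay below 240 CPM too, with overlap. Cyba in cluster 8 of 4T1p (1715 CPM) lay above 1428 CPM, and in 4T1m its interval there (956 to 1080) overlapped with the monocytic-like one. Clusters of 1 library are not replicates, so the levels by cluster are given as a description.

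**Figure D2:**
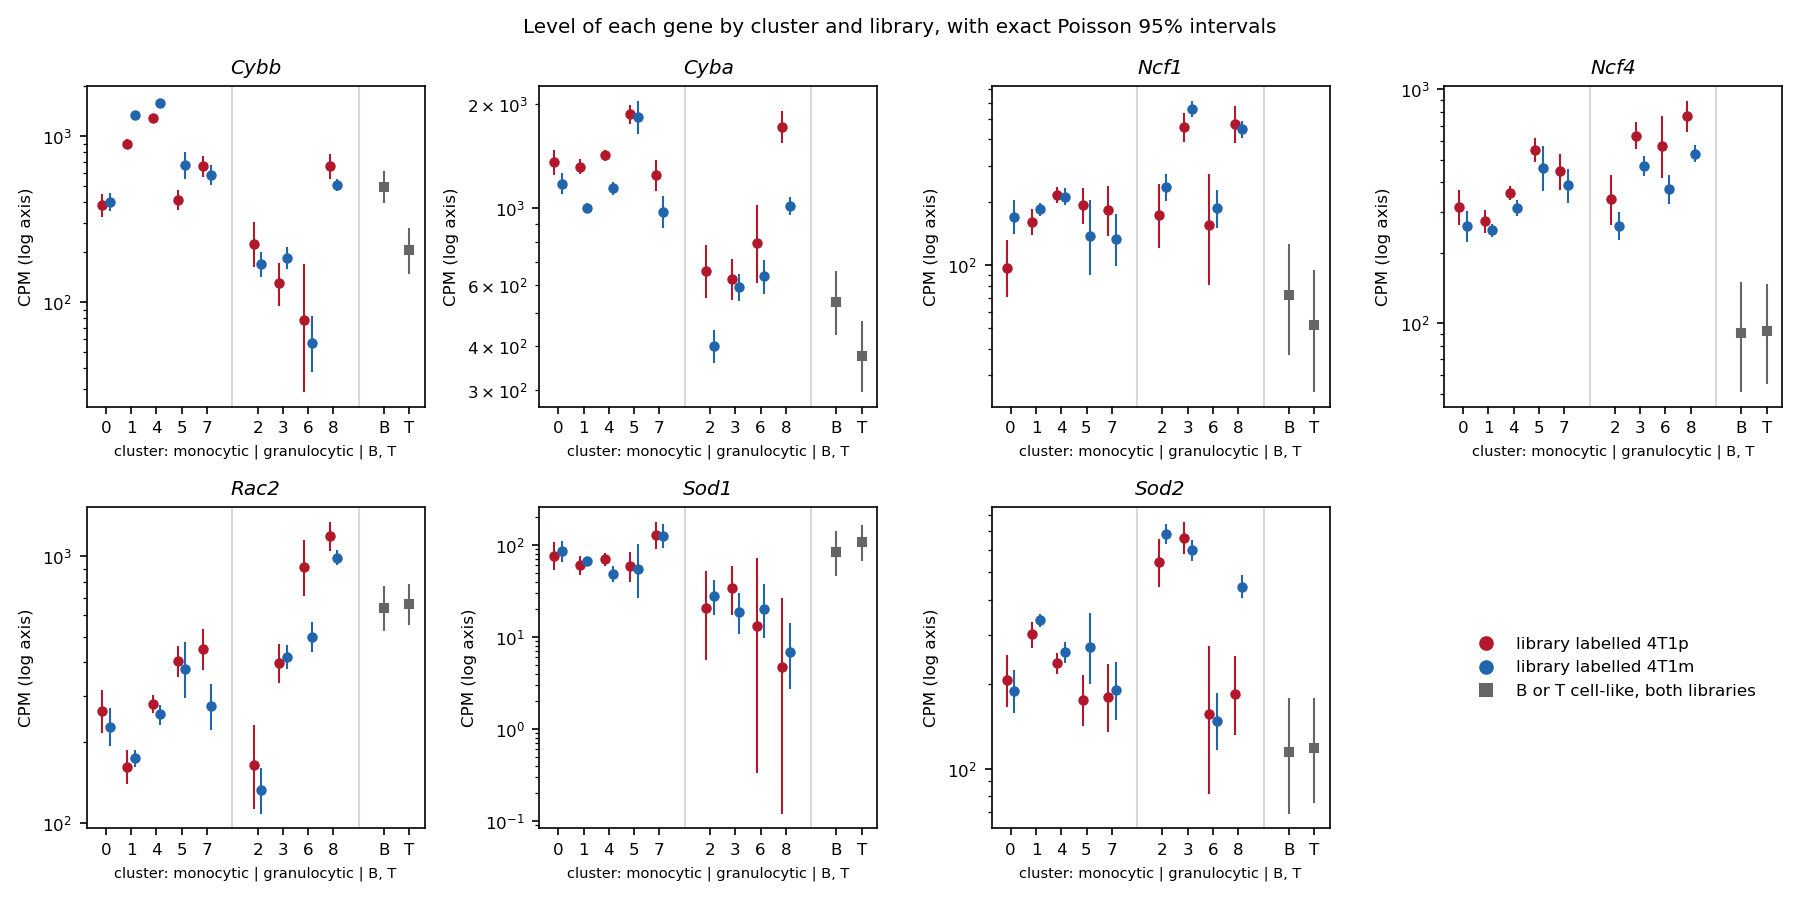
CPM (log axis) of each of the 7 genes in the monocytic-like clusters 0, 1, 4, 5 and 7, the granulocytic-like clusters 2, 3, 6 and 8, and the B and T cell-like cells, with exact Poisson 95% intervals; red marks the library labelled 4T1p and blue that labelled 4T1m. Cybb and Rac2 spanned the widest range in the granulocytic-like clusters, Sod1 was lowest in cluster 8, and Sod2 was highest in clusters 2 and 3.

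Cluster 8, led by Camp, Ngp and Ltf, showed the most oxidase genes per cell among the granulocytic-like clusters. There Cybb was at 658 CPM (554 to 777) in the library labelled 4T1p and 508 CPM (465 to 554) in that labelled 4T1m, Cyba at 1715 and 1017 CPM, Ncf4 at 767 and 531 CPM, and Rac2 at 1189 (1046 to 1345) and 990 CPM (930 to 1052). All 4 were at their highest granulocytic-like level in this cluster in both libraries. For Ncf4 the interval of the next cluster overlapped in both libraries, and for Rac2 that of cluster 6 overlapped in 4T1p. Of the 5 oxidase genes, a thinned cell of cluster 8 showed on average 2.62 and 2.05, and 45.8% (25.6 to 67.2) and 34.4% (27.0 to 42.4) of its cells showed 3 or more. The 4T1p values of cluster 8 rest on 24 cells, which held 251 of the 493 granulocytic-like Rac2 UMIs of that library. Cybb in cluster 8 was uneven, with a UMI in 76 of 181 cells and 43.8% of the 660 UMIs in the 10 highest cells.

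Cybb was lower in the other granulocytic-like states. It was at 226 and 170 CPM in cluster 2, 130 and 185 CPM in cluster 3, and 78.3 (28.8 to 171) and 56.9 CPM (37.8 to 82.3) in cluster 6, a span of 8.40-fold and 8.92-fold from the highest to the lowest. With log-normalization in place of SCTransform the clusters were different, and the log2 span of Cybb in 4T1p was 0.32 in place of 3.07. Clusters 2 and 3 overlapped in both libraries, and clusters 3 and 6 in 4T1p. As a reference for free monocytic RNA, the complement genes C1qa, C1qb and C1qc were counted in the same cells. Per 100 C1q UMIs there were 9.98 and 24.4 Cybb UMIs in monocytic-like cells, and 8.11 and 14.6 in cluster 6, where Cybb thus stood no higher against C1q than in the monocytic-like cells. In cluster 2 there were 62.9 and 78.0, in cluster 3 47.4 and 112, and in cluster 8 1544 and 375, all higher than in the monocytic-like cells. The C1q UMIs behind these ratios were few in the granulocytic-like clusters, 9 (in 24 cells) and 139 in cluster 8, 74 and 192 in cluster 6, 70 and 173 in cluster 2, and 97 and 142 in cluster 3. T cell-like cells of both libraries together had 206 CPM (147 to 281), mostly from 1 cell, and 400 Cybb UMIs per 100 C1q UMIs, from 10 C1q UMIs. Clusters 2 and 3 lay within or below that interval and below that ratio. All 40 T cell-like Cybb UMIs came from the library labelled 4T1m, so for 4T1m this reference does not set the Cybb of clusters 2 and 3 apart from background. The library labelled 4T1p had just 7 T cell-like cells, without a Cybb UMI, too few for a reference of its own, and nothing is concluded for it. By CPM, cluster 8 lay above the interval in both libraries. Against C1q it lay above the T cell-like 400 in 4T1p (1544, from 9 C1q UMIs) but below it in 4T1m (375). The intervals of its thinned Cybb share, 15.6 to 55.3% in 4T1p and 8.99 to 20.4% in 4T1m, overlapped with that of T cell-like cells (0.0873 to 17.8%). Cluster 8 of 4T1m was thus set apart from T cell-like cells by CPM alone. Cybb in cluster 6, from 6 and 28 UMIs, was not distinguishable from background by either reference at this depth. In clusters 2 and 3 the 10 cells with the most held 62.0% and 49.8% of the Cybb UMIs.

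By its level Rac2 followed another order, 8, 6, 3, 2 from high to low in both libraries, in which clusters 8 and 6 overlapped in 4T1p and clusters 6 and 3 in 4T1m. Cluster 6 held 914 (713 to 1155) and 498 CPM (438 to 565), cluster 3 396 and 420 CPM (378 to 465 in 4T1m), and cluster 2 164 (112 to 232) and 132 CPM (108 to 160). Cluster 2 was thus 7.25-fold and 7.49-fold below cluster 8, below the B and T cell-like cells, and monocytic-like cluster 1 held 162 and 175 CPM. Cluster 6 paired a high Rac2 with the lowest Cybb. The span of Rac2, log2 2.86 and 2.91, was 0.76 in 4T1p with at most 5% mitochondrial UMIs and 1.68 in 4T1m at resolution 0.4, where the clusters were different. In 4T1p the spans of Cyba (1.45) and Ncf4 (1.18) were 0.12 and 0.16 with at most 5% mitochondrial UMIs.

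Sod2 had yet another order. It was highest in clusters 2 and 3, at 544 (445 to 658) and 685 CPM (629 to 746) in cluster 2 and at 665 (583 to 756) and 599 CPM (549 to 653) in cluster 3, which overlapped with each other in both libraries. Cluster 6 held 157 (81.0 to 274) and 148 CPM (116 to 187). The span of Sod2 was 4.24-fold and 4.62-fold (log2 2.09 and 2.21), and log2 0.39 and 0.63 over the clusters made with log-normalization. The library labelled 4T1p had 185 CPM (131 to 253) in cluster 8 and that labelled 4T1m 446 CPM (406 to 488).

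Ncf1 was highest in clusters 3 and 8, at 459 and 561 CPM in cluster 3 and 474 and 449 CPM in cluster 8, with 174 and 236 CPM in cluster 2 and 157 and 187 CPM in cluster 6. Clusters 2 and 6 overlapped in both libraries. Sod1 reached no more than 34.0 CPM in a granulocytic-like cluster, and in cluster 8 just 1 and 7 UMIs were counted (4.74 and 6.82 CPM, with an upper bound of 26.4 and 14.1 CPM), of 211116 and 1025740 UMIs. The deepest granulocytic-like state, with a median of 5355 UMIs per cell, thus had the fewest Sod1 counts, although neighbouring clusters in the order overlapped. Thinned cells of cluster 2 showed on average 1.13 and 0.84 of the 5 oxidase genes, and 17 of 68 and 130 of 301 cells showed none, the highest shares among the myeloid clusters of their library.

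Among monocytic-like cells Cybb was highest in cluster 4 (C6, Cxcl9), at 1286 (1240 to 1333) and 1584 CPM (1530 to 1640), followed in both libraries by cluster 1, at 904 (850 to 960) and 1352 CPM (1317 to 1388). It was lowest in the low-RNA cluster 0, at 384 and 401 CPM. Cyba had a different peak, cluster 5 (Tmem176b, C1qb), at 1866 (1751 to 1986) and 1835 CPM (1642 to 2043), where Cybb stood at just 413 and 671 CPM. Ncf4 was also highest in cluster 5, at 550 and 460 CPM, with the interval of cluster 7 overlapping. Rac2 was highest in clusters 5 and 7 and lowest in cluster 1, and Sod2 highest in cluster 1, at 301 and 338 CPM. Clusters 5 and 7 were far shallower than clusters 4 and 1, as given above, and the part of depth in these orders was not tested. Cluster 7, with the cell cycle genes, had the highest Sod1 CPM of any cluster, 129 (91.4 to 177) and 126 CPM (92.5 to 167). Cluster 0 and the B and T cell-like cells overlapped with it. The 10 cells with the most held 50.6% of its 85 Sod1 UMIs. Its thinned share was 6.35% in 4T1p, below the 8.12% of cluster 4, and 11.5% in 4T1m. For Cyba and Sod2 the whole monocytic-like span was under 2-fold in both libraries (log2 0.58 and 0.91 for Cyba, 0.77 and 0.84 for Sod2), which depended on the processing. It reached 2-fold for Cyba in 7 of 14 alternatives in 4T1p (up to 1.16) and in 3 of 14 in 4T1m (up to 1.17), and for Sod2 in 5 of 14 in each library (up to 1.41 and 1.21).

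Over the 18 groups of cluster and library, each of at least 20 cells, the profile of Ncf4 was most like that of Rac2 among 3777 genes (Pearson r of log2(CPM + 10) = 0.86), and then like those of Arhgap9 and Spi1 (0.86 each). Cybb and Cyba had r = 0.67 with each other, Cybb and Ncf1 -0.14, and Sod1 and Sod2 -0.30. The genes most like Cybb were Lpgat1 (0.90), Gas7 (0.87) and Dok2 (0.86), and those most like Cyba were Itm2b (0.93), Ech1 (0.91) and Lyz2 (0.90). Ncf1 was most like Cd47 (0.82), Pbxip1 (0.81) and Spata13 (0.79). Rac2 was most like Tspo (0.93), Taldo1 (0.92) and Gmfg (0.90). Sod1 went with Nhp2 and Ncl (0.96 each) and Cnbp (0.95), genes of ribosome production and nucleic acid binding, and Sod2 with Tmbim4 (0.90), Il23a (0.89) and Arid5b (0.85). The groups come from 2 libraries and share their depth, so these values only describe likeness.

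At 1000 UMIs per cell a pair of genes can be found together no more often than its rarer gene is found at all. Cybb alone was found in 11.3% and 8.19% of granulocytic-like cells, and Ncf1 alone in 14.3% and 15.6% of monocytic-like cells. Whether pairs were found together more or less often than the shares of their single genes would give was not tested. After thinning, Cybb and Cyba were both found in 27.1% (23.5 to 30.9) and 29.1% (25.9 to 32.4) of monocytic-like cells but in 5.22% (2.72 to 8.94) and 3.94% (2.79 to 5.38) of granulocytic-like cells. Cybb and Ncf1 were both found in 7.33% (5.33 to 9.78) and 8.07% (6.25 to 10.2) of monocytic-like cells and in 5.65% (3.04 to 9.47) and 2.66% (1.73 to 3.90) of granulocytic-like cells. Cyba and Ncf4 together differed less, with 21.8% and 14.5% against 14.8% and 15.7%. None of the 5 oxidase genes was seen in 53 of 573 and 86 of 781 monocytic-like and in 42 of 230 and 226 of 940 granulocytic-like cells.

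The comparison of the libraries asked whether these genes differed between GR-1+ cells of the resistant and the responsive tumor. No gene of the 7 was past 2-fold in either lineage. In granulocytic-like cells 6 of the 7 had enough UMIs, and 5.27% of all genes were past 2-fold higher and 2.31% lower in the library labelled 4T1m. In monocytic-like cells all 7 had enough, and the shares were 6.59% and 1.27%. The median log2 ratio of all genes, 0.09 and 0.13, and that of the 7 genes, -0.10 in both lineages, lay near 0.

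**Figure D3:**
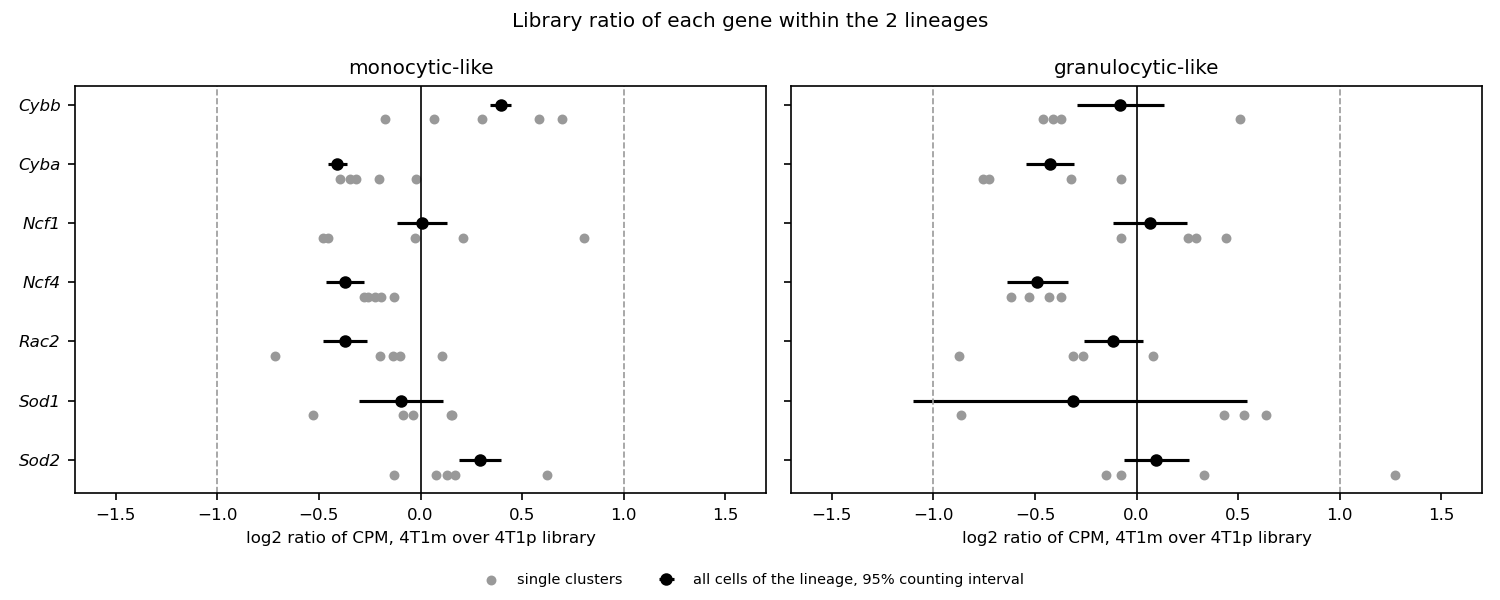
Log2 ratio of CPM of the 7 genes, library labelled 4T1m over that labelled 4T1p, in monocytic-like and granulocytic-like cells (black, with 95% counting intervals) and in each cluster of the lineage (gray points below); dashed lines mark 2-fold. Cyba and Ncf4 lie below 0 in every cluster of both lineages, Cybb lies above 0 in 4 of 5 monocytic-like clusters, and Sod2 in cluster 8 is the single point past 2-fold.

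Ncf4 and Cyba were lower in the library labelled 4T1m in both lineages. Ncf4 had a log2 ratio of -0.49 (-0.64 to -0.34) in granulocytic-like and -0.37 (-0.47 to -0.28) in monocytic-like cells. With cells thinned to 1000 UMIs the granulocytic-like ratio was -0.15. The thinned shares of 4T1p and 4T1m overlapped in granulocytic-like cells (30.3 to 43.1% and 29.0 to 35.1%) but not in monocytic-like cells (26.6 to 34.3% and 18.9 to 24.8%). The Ncf4 ratio was below 0 in every cluster, from -0.62 to -0.37 in the 4 granulocytic-like and from -0.28 to -0.13 in the 5 monocytic-like clusters. The interval of 1 of these monocytic-like clusters left out 0, and the value over all monocytic-like cells lay outside the range of the single clusters. Cyba had -0.43 (-0.55 to -0.31) and -0.41 (-0.46 to -0.36), with clusters from -0.75 to -0.08 and from -0.40 to -0.02. The intervals of 2 granulocytic-like clusters and 1 monocytic-like cluster held 0. For Cyba too the value over all monocytic-like cells lay outside the range of the single clusters, though only just. Among the single clusters the largest gap was in cluster 8 (-0.75), at 1715 CPM in 4T1p, from 24 cells, and 1017 CPM in 4T1m, with cluster 2 close to it (-0.73). The thinned Cyba shares of cluster 8, 75.0% (53.3 to 90.2) and 56.7% (48.6 to 64.6), overlapped.

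The clusters that hold most cells of each lineage differ between the libraries, as given above. Cybb was higher in the library labelled 4T1m in monocytic-like cells, by 0.40 on the log2 scale (0.34 to 0.45), and in granulocytic-like cells the interval of -0.08 (-0.29 to 0.14) held 0. The monocytic-like difference was found in clusters 1 (0.58), 4 (0.30) and 5 (0.70), whose intervals left out 0, and in clusters 0 and 7 (0.06 and -0.17) the interval held 0. Over the whole lineage, monocytic-like cells of 4T1m were also deeper by median. Within clusters the medians of 4T1p and 4T1m were 10621 and 10741 UMIs in cluster 1 and 13499 and 12607.5 in cluster 4. In cluster 5 they were 1181 and 1424.5. The part of depth in the Cybb difference was not tested beyond thinning. The thinned share was 39.2% (29.7 to 49.4) and 58.1% (52.8 to 63.3) in cluster 1, and 55.6% (47.6 to 63.5) and 64.2% (56.2 to 71.6) in cluster 4. The intervals overlapped in cluster 4 and also in cluster 5 (22.8 to 38.0% and 29.6 to 55.9%), so that thinned shares stood apart in cluster 1 alone of these 3.

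Rac2 had -0.37 (-0.48 to -0.26) in monocytic-like cells, with clusters from -0.72 to 0.11, and had -0.12 (-0.26 to 0.03) in granulocytic-like cells. Among the monocytic-like clusters only the interval of cluster 7 (-0.72) left out 0. In the granulocytic-like cluster 6 Rac2 stood at -0.88, with 70 and 245 UMIs. Sod2 was higher by 0.29 (0.19 to 0.40) in monocytic-like cells and had 0.10 (-0.06 to 0.26) in granulocytic-like cells. The monocytic-like clusters ranged from -0.13 to 0.62 for Sod2, and only the interval of cluster 5 (0.62, from 93 and 49 UMIs) left out 0. In cluster 8 its ratio was 1.27, at 185 CPM from 39 UMIs of 24 cells and 446 CPM from 457 UMIs of 157 cells, which is the single case past 2-fold over all 7 genes and all myeloid clusters. Over all cells Ncf1 (0.06 and 0.01) and Sod1 (-0.31 and -0.10, the first from 18 and 55 UMIs) had intervals that held 0 in both lineages. The single monocytic-like clusters of Ncf1 ranged from -0.48 to 0.81. Intervals left out 0 for Ncf1 in cluster 0 (0.81, 0.28 to 1.35) and cluster 3 (0.29, 0.03 to 0.56), and for Sod1 in cluster 4 (-0.53, -0.91 to -0.16). In all other myeloid clusters they held 0.

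Other genes that build, feed or clear the products of the oxidase were taken from a list of 34. With enough UMIs were 20 of them in the lineage comparison of 4T1p and 23 in that of 4T1m. Past 2-fold higher in granulocytic-like cells were 1 (Gsr, glutathione reductase) and 0, and past 2-fold lower were 7 and 7, with medians of -0.37 and -0.56 beside the -0.80 and -0.90 of all genes. Of all genes 13.3% and 11.6% were past 2-fold higher and 45.9% and 47.7% past 2-fold lower, so the listed genes were past 2-fold in no larger a share than all genes in either direction. In the library comparisons 0 of 14 (granulocytic-like) and 0 of 25 (monocytic-like) were past 2-fold.

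**Figure D4:**
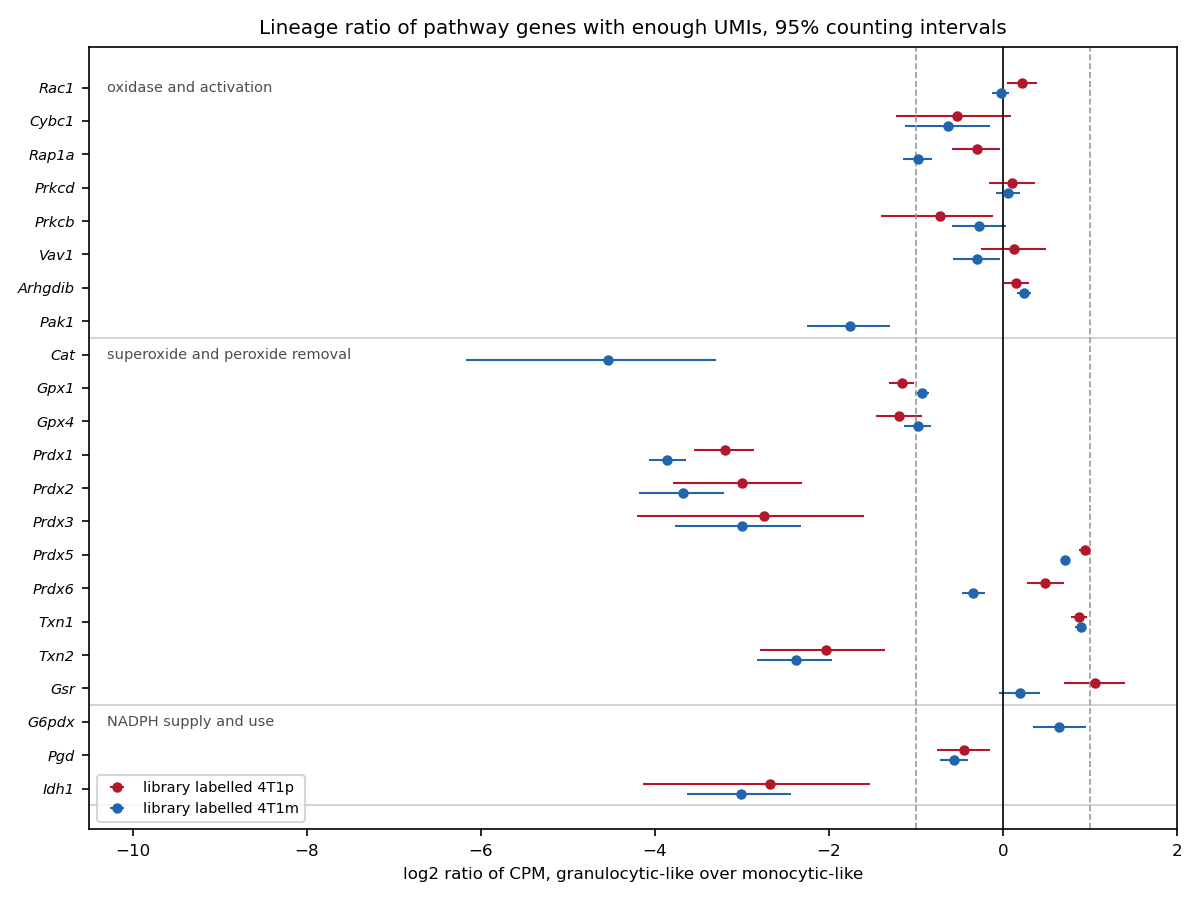
Log2 ratio of CPM, granulocytic-like over monocytic-like cells, of listed pathway genes with at least 200 UMIs in both groups together, in the libraries labelled 4T1p (red) and 4T1m (blue), with 95% counting intervals; dashed lines mark 2-fold. Prdx1, Prdx2, Prdx3, Txn2 and Idh1 lie beyond 2-fold on the monocytic-like side in both libraries, while Prdx5 and Txn1 lie on the granulocytic-like side inside 2-fold.

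Among genes of the oxidase and its activation, Rac1, the widely expressed relative of Rac2, had log2 ratios of 0.23 (0.05 to 0.40) and -0.02 (-0.12 to 0.08). The single gene of this group past 2-fold was Pak1, a kinase that binds Rac, with -1.76 in 4T1m. Hvcn1, the voltage-gated proton channel that offsets the charge the oxidase moves, had 4 UMIs in granulocytic-like cells of each library and 114 and 112 in monocytic-like cells, too few for the comparison. The alternative oxidases and their partners were nearly unseen: in the 4 groups of lineage and library Nox1 and Nox4 had at most 3 UMIs, and Noxa1, Duox1 and Duox2 had 0 in each. Noxo1 had 11 and 12 UMIs in monocytic-like and 0 in granulocytic-like cells. As a one-sided limit a count of 0 allows up to 3 UMIs, from 0.408 CPM in monocytic-like cells of 4T1m to 3.59 CPM in granulocytic-like cells of 4T1p, and the two-sided exact Poisson interval used for the other levels ends at 0.502 and 4.41 CPM.

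Of the genes that remove superoxide and peroxide, 6 of 10 with enough UMIs in 4T1p and 5 of 11 in 4T1m were past 2-fold lower in granulocytic-like cells, beside the 45.9% and 47.7% of all genes, and these counts are read no further. The peroxiredoxins Prdx1, Prdx2 and Prdx3 were lower in granulocytic-like cells of both libraries. Prdx2 had log2 ratios of -3.00 and -3.67, from 17 and 37 UMIs in granulocytic-like cells. Prdx3 had -2.74 (-4.20 to -1.60) and -3.00 (-3.77 to -2.32), from just 6 and 18 UMIs there. Prdx1 stood at 86.1 and 58.7 CPM in granulocytic-like and at 789 and 848 CPM in monocytic-like cells, a 9.16-fold and 14.5-fold difference. Prdx5 went the other way, at 2433 and 1734 CPM against 1262 and 1054 CPM, with log2 ratios of 0.95 (0.87 to 1.02) and 0.72 (0.67 to 0.77). Prdx6 had 0.49 in 4T1p and -0.34 in 4T1m. Thioredoxin was divided by compartment, the cytosolic Txn1 at 0.88 and 0.90 and the mitochondrial Txn2 at -2.03 and -2.38. Catalase (Cat) had 0 and 5 UMIs in granulocytic-like cells and 195 and 269 in monocytic-like cells, which put it past 2-fold in 4T1m (-4.54) and under the UMI minimum in 4T1p.

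Ccs, the chaperone that loads copper into Sod1, had 1 and 9 UMIs in granulocytic-like cells (log2 ratio -4.67, -9.99 to -2.17, and -2.75, -3.91 to -1.78) and 143 and 140 in monocytic-like cells, too few for the count in either library but on the same side as Sod1. Extracellular Sod3 had at most 1 UMI in any of the 4 groups. The glutathione peroxidases Gpx1 and Gpx4 had -1.16 and -0.93, and -1.19 and -0.98, on either side of 2-fold. For the supply of NADPH, Idh1 had log2 ratios of -2.68 and -3.00, from 6 and 26 UMIs in granulocytic-like cells. Pgd of the pentose phosphate pathway had -0.45 and -0.56. G6pdx, which opens the pentose phosphate pathway, was on the granulocytic-like side in 4T1m at 0.65 (0.35 to 0.96), while in 4T1p it had -0.70 (-1.55 to 0.05) from 16 and 146 UMIs, under the UMI minimum. Mpo, which uses the peroxide in neutrophil granules and is transcribed in early precursors, had 2 UMIs in monocytic-like cells of each library and 0 in granulocytic-like cells.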

How the data were processed

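GR-1+ tumor cells of 2 libraries were measured. The authors aligned reads to mm10 (GRCm38) with Cell Ranger and deposited matrices of raw UMI counts for the barcodes called as cells. The matrix header names software version 3.1.0, while the study's methods name a later version of Cell Ranger.

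Cells passed the study's limits on genes, UMIs and mitochondrial share; its requirement of a Ptprc count and its doublet removal (scDblFinder) were not applied. Clusters came from Seurat 5.3.0 in R 4.3.3: SCTransform (sctransform 0.4.2, 3000 variable genes, the mitochondrial share regressed out, without the 7 genes, the 34 listed pathway genes, Gm42418 and AY036118), 11 principal components and Louvain resolution 0.8, both libraries merged. Doublets were kept, and removed by Scrublet (scanpy 1.11.5; 13 and 44 cells) as an alternative. Clusters were named from marker lists: B or T cell-like with 2 markers or more, each in 25% of cells, and otherwise by the myeloid list with the higher mean share. Cluster 0 had a pooled median of 0.372 of its libraries' medians, but in 4T1m alone its median (910 of 2739 UMIs, a ratio of 0.332) lay just under the limit set for naming a cluster, 0.333; it was named on the pooled value.

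CPM came from summed deposited counts. Log2 ratios, exact binomial intervals and 2-fold counts (genes with at least 200 UMIs in both groups together) carried no test. Python 3.11.15, scipy 1.17.1 and numpy 2.4.6 were used, and functions were tested on simulated data. Named were the 7 genes, the pathway list, the 3 genes most like each of the 7 (at least 500 UMIs) and leading genes of clusters. The members and lists were chosen with earlier results of these data known. The promoter window was shortened after exons were found to reach into it, and all 5 motifs searched are shown; both were settled with matches in view. Alternatives for the counts and ratios, 15 planned and 1 added after seeing the data, are given at the end. A further planned setting, at least 50 UMIs, was used only for the shares of all genes past 2-fold. Values of 1 gene of the pathway list are not reported here; the counts over the list include it.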

Additional observations from a re-analysis of the deposited data

How the results depend on the processing

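The counts of the 7 genes past 2-fold moved in 10 recomputed values and stayed in 118. A count can stay while the genes behind it change. In 4T1p Rac2, the gene counted toward granulocytic-like cells, was at 0.37 with the mean of per-cell CPM and 0.60 with thinned cells. Sod2 was at 1.04 and 1.15 there, and the count stayed at 1. With thinned cells Cyba was at -1.01 in 4T1p, and the count toward monocytic-like cells stayed at 2. Ncf1, Rac2 and Sod2 lie near that line. Toward granulocytic-like cells the count in 4T1p went from 1 to 2 with at most 5% mitochondrial UMIs and to 4 relative to the median of all genes. In 4T1m it went from 2 to 0 with the mean of per-cell CPM and with cells thinned to 1000 UMIs, to 1 with lineages taken from marker UMIs per cell and with mitochondrial genes, Gm42418 and AY036118 left out of the totals, and to 4 relative to the median. Toward monocytic-like cells the count in 4T1p went from 2 to 1 with at most 5% mitochondrial UMIs and to 0 relative to the median. In 4T1m that count went from 2 to 1 with thinned cells. The log2 ratios of Cybb and Sod1 stayed past 2-fold in both drops to 1. They were -1.47 and -1.92 in 4T1p with at most 5% mitochondrial UMIs, and -2.74 and -2.06 in thinned cells of 4T1m. Only genes that reach the UMI minimum are counted, so these drops do not mean that either ratio came inside 2-fold. Pathway genes toward granulocytic-like cells went from 1 to 3 with a Ptprc UMI required, 0 thinned and 5 relative to the median in 4T1p, and from 0 to 6 relative to the median in 4T1m. Toward monocytic-like cells they went from 7 to 4 in both libraries with thinned cells, and between libraries in monocytic-like cells from 0 to 1 with the mean of per-cell CPM. The share of all genes past 2-fold relative to the median was not computed, so the counts relative to it are read no further. Apart from the UMI minimum for Sod1, the causes of these moves were not tested.

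Taken over all cells, the lineage direction of each gene held under all 16 alternatives (15 for Sod1 in 4T1p), except Cyba relative to the median. Between libraries, over all cells of a lineage, Cyba, Ncf4 and Rac2 were below 0 in both lineages, and Cybb and Sod2 above 0 in monocytic-like cells, under all 16. The alternatives reuse the same 2 libraries, so a kept sign is no independent evidence. For Rac2, Cybb and Sod2 the single monocytic-like clusters differed in sign, as given above. The granulocytic-like clusters of Rac2 differed in sign too (-0.88 to 0.08), and its interval over all granulocytic-like cells held 0. Ncf1 in monocytic-like cells kept its sign in 9. The span of Cybb over granulocytic-like clusters in 4T1p, 3.07, was 0.32 under log-normalization, where clusters differ. Requiring 50 in place of 200 UMIs put 50.1% and 54.2% of genes past 2-fold toward monocytic-like cells. No paired analysis was possible because each condition has 1 library. Depth limits Sod1 most, with 18 UMIs in granulocytic-like cells of 4T1p.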
